A study of Mus musculus with 57 samples.

Results

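The genes of serine synthesis and one-carbon metabolism were examined in single cells taken as prostate cancer cells from mouse bone. They are 8 enzyme genes, Phgdh, Psat1, Psph, Shmt1, Shmt2, Mthfd1, Mthfd2 and Mthfd1l, chosen by name from the serine and folate pathways and not by their values, and all 8 were found among the 12887 genes of the table of all cells. RM1 is a mouse prostate cancer line. The cells carried transgenes for luciferase (Luc2) and the fluorescent protein cerulean (eCFP), were stained with the membrane dye PKH26 and were injected into the heart of C57BL/6 mice. By this protocol, tumour cells of both states share the line, both label genes, the dye and the host strain. In 6 of the dormant cells the label genes were low, as described below. Dormant cells are those sorted with the dye and proliferating cells those sorted without it, on days 13 to 26 after injection. Full-length RNA-seq values were analysed for 28 dormant and 29 proliferating cells, each state from 6 mice, with both states in mice 1185, 360, 369 and 452.

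Serine is made from a glycolytic intermediate in 3 enzyme steps, encoded by Phgdh, Psat1 and Psph. Serine hydroxymethyltransferases then pass a carbon unit of serine to folate and leave glycine, Shmt1 in the cytosol and Shmt2 in mitochondria. The MTHFD enzymes convert the folate-bound carbon between its chemical forms, Mthfd1 in the cytosol and Mthfd2 and Mthfd1l in mitochondria. The carbon serves purine and thymidylate synthesis.

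Recovered read totals ran from 945351 to 5306777 per cell, and 2399 to 10509 genes were above 0. In 6 cells, all dormant and from mice 1184, 244, 360 and 369, eCFP was under 100 normalised reads, and these are called low-label here. Both dormant cells of mouse 360 and the single dormant cell of mouse 244 were low-label. In the low-label cells the summed level of 18 pan-leukocyte genes was 44561 to 91307 normalised reads, against 935 to 20708 in the other 22 dormant cells (labelled dormant) and 762 to 10059 in proliferating cells. Krt8, an epithelial keratin gene, was at 0 to 9.40 in low-label cells, at 559.9 or more in labelled dormant cells and at 87.8 or more in proliferating cells. Luc2 was at 2.3 to 230 in low-label cells, at 1850 or more in labelled dormant cells and at 1994 or more in proliferating cells. Lyz2, a macrophage gene, was at 52145 to 188632 in low-label, 0 to 95205 in labelled dormant and 0 to 1251 in proliferating cells. Whether the low-label cells are tumour cells was not tested. The summed level of 8 cycling genes was 3.13 to 247 in low-label, 114 to 13087 in labelled dormant and 898 to 19036 in proliferating cells. A proliferating cell of mouse 268 had the fewest genes above 0 (2399), and a labelled dormant cell of mouse 452 had 2984. The comparisons between states below are given with and without the low-label cells. The labels' protocols describe library batches that held cells of a single state, so the effects of batch and of state cannot be told apart.

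The values are the authors' BASiCS-normalised reads per gene and cell, a signal scaled with the help of spike-in RNA. The genes lie on GRCm38 chromosome 3 from 98313170 to 98339990 (Phgdh), chromosome 19 from 15904678 to 15947337 (Psat1), chromosome 5 from 129765558 to 129787449 (Psph) and chromosome 11 from 60788104 to 60811718 (Shmt1). Shmt2 lies on chromosome 10 from 127517123 to 127522444, Mthfd1 on chromosome 12 from 76255298 to 76319803, Mthfd2 on chromosome 6 from 83305691 to 83325908 and Mthfd1l on chromosome 10 from 3973118 to 4167081. All are protein-coding. Phgdh has 17 processed pseudogenes with transcripts at least 90% identical over 200 bases or more. Of these, Gm7901 was in the table, at a median of 28.7 normalised reads in labelled dormant cells and 22.6 in proliferating cells. Psph overlaps Cct6a, a chaperonin subunit gene of the other strand, over 452 bases of transcript, and the use of strand in counting is not given in the sources used here. Shmt1 overlaps Smcr8, Shmt2 overlaps Ndufa4l2 and Mthfd1 overlaps the antisense gene Gm34868, and Psat1 the pseudogene Gm3329, each on the other strand. Mthfd2 overlaps Gm43890 and Mthfd1l the pseudogene Gm16074 on the same strand, where the use of strand would not separate any shared reads. Apart from that of Psph, these overlaps are of whole gene spans, introns included, and bases shared between exons were not counted. How far these overlaps and pseudogenes touch the levels of the members was not tested.

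The stretches before the start sites of 3 members, 250 bases each and 5′ to 3′ on the gene's strand, are shown because Phgdh had positive correlations with Shmt2 and Mthfd2 across labelled cells of both states. Phgdh also had positive correlations with Psat1 and Psph in both states, and their stretches are not shown. Over all 22 labelled dormant cells r was 0.12 with Shmt2 and 0.27 with Mthfd2. The stretches shown are Phgdh at chr3:98339970-98340219, Shmt2 at chr10:127522445-127522694 and Mthfd2 at chr6:83317605-83317854, all on the minus strand of GRCm38.p6 and taken from RefSeq. Capitals mark CCAAT on either strand, so that ATTGG is a match on the other strand.
Phgdh: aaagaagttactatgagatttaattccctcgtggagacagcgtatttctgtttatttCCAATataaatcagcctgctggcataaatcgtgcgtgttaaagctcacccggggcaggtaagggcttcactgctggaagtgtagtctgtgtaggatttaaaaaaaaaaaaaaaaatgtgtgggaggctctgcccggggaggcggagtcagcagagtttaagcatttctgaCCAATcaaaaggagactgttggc
Shmt2: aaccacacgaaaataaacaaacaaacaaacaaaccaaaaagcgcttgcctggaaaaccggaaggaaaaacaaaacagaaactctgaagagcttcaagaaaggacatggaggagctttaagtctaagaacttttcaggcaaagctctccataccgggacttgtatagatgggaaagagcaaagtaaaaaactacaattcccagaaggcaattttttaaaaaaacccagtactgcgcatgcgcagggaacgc
Mthfd2: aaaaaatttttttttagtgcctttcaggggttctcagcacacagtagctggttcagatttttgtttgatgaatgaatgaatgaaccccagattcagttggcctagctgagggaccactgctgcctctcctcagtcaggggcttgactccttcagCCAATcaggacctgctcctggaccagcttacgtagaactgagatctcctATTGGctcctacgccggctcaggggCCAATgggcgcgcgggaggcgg
All 8 members matched a RefSeq promoter window of 300 bases, with 9 windows in all. CCAAT stood in 6 of the 9 on either strand and in 37.4% of all 32851 promoters, at positions −193 and −23 from the start of Phgdh, at −96, −47 and −22 of Mthfd2 and nowhere in the window of Shmt2. GGGCGG, the GC box, stood in 5 of the 9 and in 35.7% of all promoters. TGATGNAA, the core of the element bound by CEBP and ATF factors, stood in 0 of the 9 and in 3.97% of all, and CACGTG, the E-box, in 0 of the 9 and in 7.15%. None of these motifs overlaps another in letters except where 2 copies of GGGCGG share bases. These matches describe letters in these windows only.

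Members were near 0 in most low-label cells and had overlapping ranges in labelled dormant and proliferating cells. Of the 8 members, a median of 2.5 were above 0 in low-label cells (range 1 to 6), against 7 in labelled dormant cells (3 to 8) and 8 in proliferating cells (3 to 8). All 8 were above 0 in 0 of 6 low-label, 10 of 22 labelled dormant and 16 of 29 proliferating cells. The eCFP threshold was set after values were seen and cells of one mouse are not independent, so these levels are a description with no test.

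In Phgdh and Psat1 most low-label cells stood apart from labelled dormant cells, while in Psph some labelled cells of both states were also at 0. Phgdh, the dehydrogenase of the first step, had a lowest, median and highest value of 0, 5.53 and 1853 normalised reads in low-label cells, of 299.5, 2361 and 6078 in labelled dormant cells and of 0, 1836 and 5550 in proliferating cells. Psat1, the aminotransferase of the second step, had 0, 2.14 and 515 in low-label, 508, 2045 and 5048 in labelled dormant and 393, 2151 and 4148 in proliferating cells. Labelled dormant and proliferating cells overlapped over nearly their whole range in both genes, and 5 of 6 low-label cells lay below all labelled dormant cells in each gene. Psph, the phosphatase of the last step, was above 0 in 1 of 6 low-label cells (at 99.8), in 20 of 22 labelled dormant cells with a median of 224 and in 27 of 29 proliferating cells with a median of 189.

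Of the hydroxymethyltransferases, mitochondrial Shmt2 was detected in more labelled cells than cytosolic Shmt1. Shmt2 had medians of 1.14, 543 and 624 normalised reads in low-label, labelled dormant and proliferating cells and was above 0 in 3 of 6, 21 of 22 and 28 of 29. Shmt1 was above 0 in 0 of 6 low-label cells (exact Clopper-Pearson 95% interval 0% to 45.9%). Shmt1 reads were found in 13 of 22 labelled dormant cells (59.1%, exact Clopper-Pearson 95% interval 36.4% to 79.3%) and in 21 of 29 proliferating cells (72.4%, 52.8% to 87.3%). Its medians were 39.0 in labelled dormant and 254.5 in proliferating cells, with ranges of 0 to 533 and 0 to 1089 that overlapped. The intervals of labelled dormant and proliferating cells overlapped as well. All these intervals cover counting error only and treat cells as independent.

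Among the MTHFD genes, Mthfd2, the mitochondrial dehydrogenase and cyclohydrolase, had medians of 0.576, 509 and 382 normalised reads in low-label, labelled dormant and proliferating cells. Mthfd1, the cytosolic enzyme of several activities, had medians of 0, 239 and 383, and Mthfd1l, the mitochondrial formyl-tetrahydrofolate synthetase, of 0, 85.7 and 100.4. Mthfd1l was above 0 in 1 of 6, 14 of 22 and 23 of 29 cells. The ranges of labelled dormant and proliferating cells overlapped in all 3 genes, each starting at 0.

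**Figure D1:**
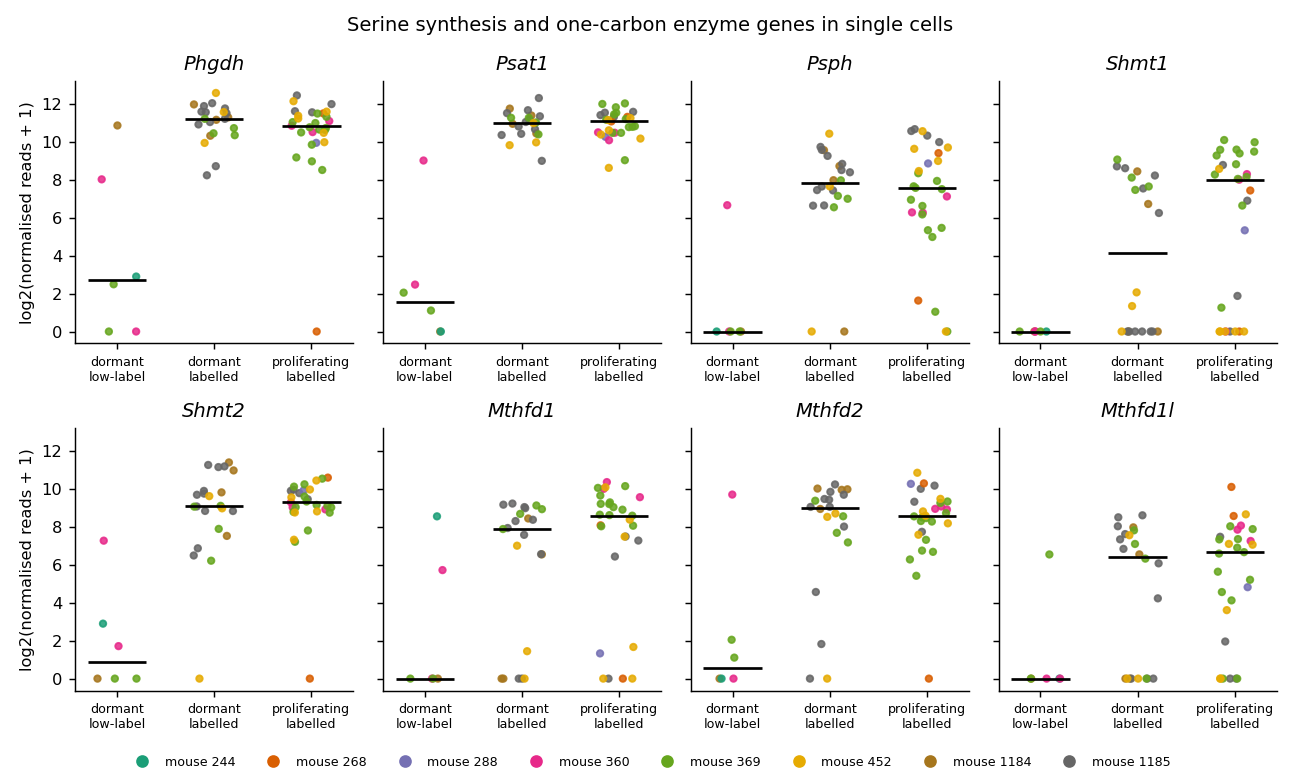
Each point is a cell, coloured by mouse, on a log2(normalised reads + 1) axis, for low-label dormant, labelled dormant and proliferating cells, with bars at the medians. Most low-label cells lie near 0 in every member, and the labelled dormant and proliferating points overlap in all 8.

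Levels of different genes were compared per kilobase of the longest coding transcript. The order of the medians in labelled dormant cells was Phgdh (1247 normalised reads per kilobase), Psat1 (781), Mthfd2 (244), Shmt2 (237), Psph (129), Mthfd1 (73.8), Mthfd1l (23.2) and Shmt1 (13.7). In proliferating cells it was Phgdh (970), Psat1 (822), Shmt2 (273), Mthfd2 (183), Mthfd1 (118), Psph (109), Shmt1 (89.1) and Mthfd1l (27.2). Phgdh and Psat1 led in both, and the ranges over cells of all neighbours in either order overlapped. Of the 29 proliferating cells, 13 come from mouse 369, so the lower ranks also follow the shares of mice. With each mouse's median counted once, the order was Phgdh, Psat1, Shmt2, Mthfd2, Psph and Mthfd1 in both states, followed by Mthfd1l and Shmt1 in labelled dormant cells (4 mice) and by Shmt1 and Mthfd1l in proliferating cells (6 mice). Mouse medians of Psph in proliferating cells then ran from 44.1 to 805 normalised reads per kilobase and those of Shmt1 from 0 to 216.

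The low-label cells differed among themselves. The cell of mouse 1184 held Phgdh at 1853 normalised reads and the other 7 members at 0. The cell of mouse 244 held Mthfd1 at 374 and Phgdh and Shmt2 at 6.44 each. One cell of mouse 360 held 6 members, led by Mthfd2 at 829.5, Psat1 at 515 and Phgdh at 258, with Shmt2 at 153, Psph at 99.8 and Mthfd1 at 51.6. The other cell of that mouse held Psat1 at 4.55 and Shmt2 at 2.28. A cell of mouse 369 held Psat1 and Mthfd2 at 3.13 each, and the cell nearest the eCFP threshold, at 87.6, held Mthfd1l at 92.2, Phgdh at 4.61 and Psat1 and Mthfd2 at 1.15 each. Only the mouse 360 cell with 6 members, whose eCFP was 3.44, held more than 1 member above 100, among these 6 cells.

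The first comparison asked whether the members differed between the states over all mice, with the mean of log2(value + 1) over a mouse's cells as the replicate. Cells at 0 enter these means, so a difference is not a fold change within cells and can be large. All 8 members had lower means in dormant cells, with a median difference (dormant minus proliferating) of −2.79, against −0.35 over all genes, and 63.1% of all 11843 genes tested were lower. By limma with Benjamini-Hochberg adjustment over all genes, 0 members and 0 genes (0%) passed an adjusted p of 0.05. At an unadjusted p under 0.05, 737 genes (6.22%) were lower and 389 higher, and 5 of 8 members (Psat1, Mthfd2, Shmt2, Mthfd1l and Psph) were among the lower ones.

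Among the serine synthesis genes, the Psat1 means had a lowest, median and highest value of 0, 8.37 and 10.93 in dormant cells and of 10.26, 10.70 and 11.45 in proliferating cells. The dormant means of mice 244, 360, 369 and 1184 lay at 8.90 or less, below all proliferating means, that of mouse 452 lay level with the lowest of them and that of mouse 1185 lay among them. Psat1 averaged 7.28 ± 4.01 in dormant cells and 10.77 ± 0.51 in proliferating cells (SD, n = 6 each), a difference of −3.50 (SE 1.24, limma adjusted p = 0.443). Psph averaged 4.59 ± 2.76 and 7.50 ± 1.90 in dormant and proliferating cells (SD, n = 6 each), a difference of −2.91 (SE 1.27, limma adjusted p = 0.478). Phgdh averaged 7.98 ± 3.79 in dormant and 9.98 ± 2.18 in proliferating cells (SD, n = 6 each), a difference of −2.003 (SE 1.37, limma adjusted p = 0.683). The dormant means of Phgdh, from 2.90 to 11.36, and its proliferating means, from 5.75 to 11.89, overlapped.

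Both hydroxymethyltransferase genes had overlapping means. Shmt2 averaged 6.04 ± 2.34 in dormant and 8.72 ± 1.72 in proliferating cells (SD, n = 6 each), a difference of −2.68 (SE 1.08, limma adjusted p = 0.456), and Shmt1 differed by −2.59 (SE 1.27, limma adjusted p = 0.537). Of the MTHFD genes, Mthfd2 averaged 5.29 ± 2.81 in dormant and 8.41 ± 1.78 in proliferating cells (SD, n = 6 each), a difference of −3.12 (SE 1.20, limma adjusted p = 0.450). Mthfd1l differed by −3.13 (SE 1.32, limma adjusted p = 0.469) and Mthfd1 by −0.74 (SE 1.44, limma adjusted p = 0.905), which turned to 0.53 when mouse 360 was left out. The dormant mean of mouse 244 and the proliferating mean of mouse 288, where Mthfd1 was at 1.51 normalised reads, rest on 1 cell each. Without these means Mthfd1 was −2.33, Mthfd2 −1.69, Phgdh −0.99, Psat1 −2.14 and Psph −1.72, and all 8 members were again lower, against 68.1% of all genes. With the recovered reads of each mouse and state summed, edgeR gave members' log2 differences of −1.88 to −0.36 and called 0 of 9489 genes (0%). Before adjustment, 306 genes were higher and 80 lower by edgeR at p under 0.05. DESeq2 called 393 of 11700 genes (3.36%), 379 of them higher in dormant cells, and 0 of the 8 members (adjusted p = 0.685 to 0.980).

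**Figure D2:**
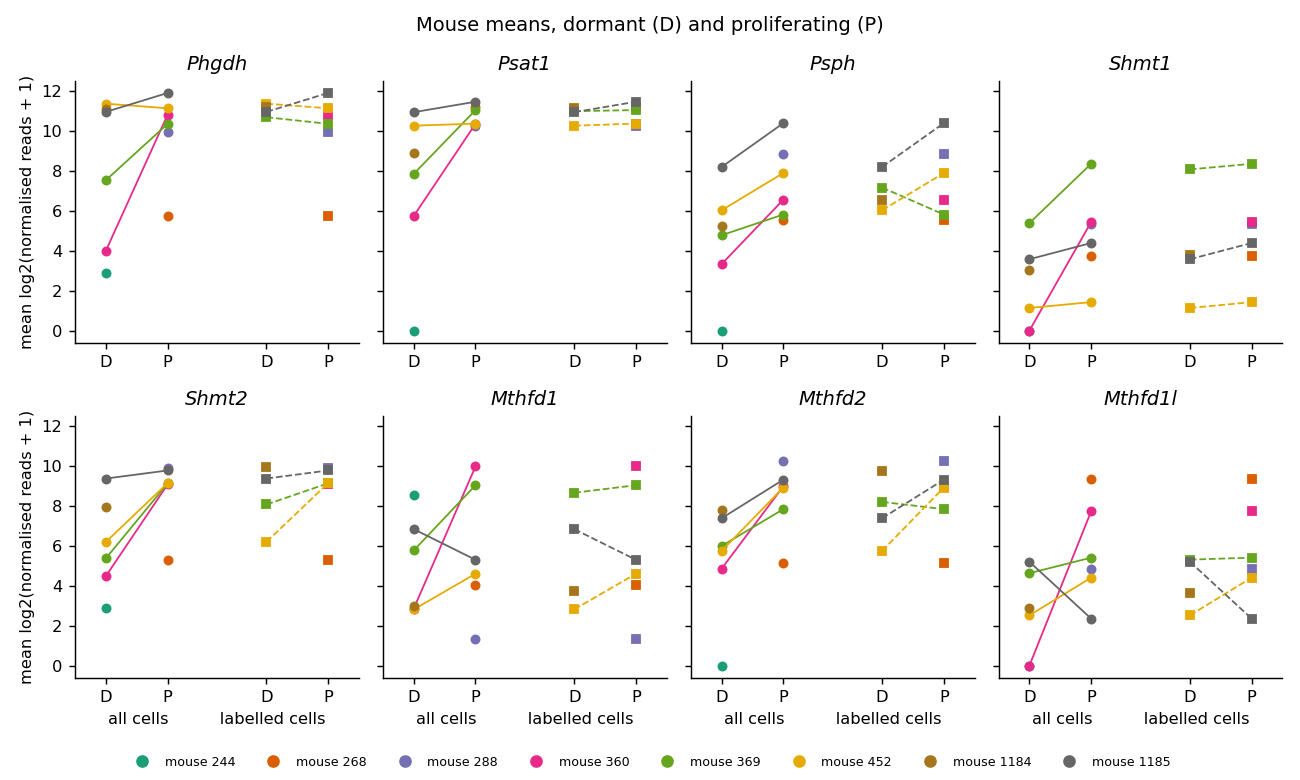
Mouse means of log2(normalised reads + 1) for dormant (D) and proliferating (P) cells, with all cells (circles) and with labelled cells only (squares), joined where a mouse gave both states. With all cells the mouse 360 line slopes up toward proliferating cells in every panel, with differences of −7.72 to −3.22, and with labelled cells the dormant means of Psat1 run from 10.26 to 11.13, beside 10.26 to 11.45 in proliferating cells.

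Without the 6 low-label cells, 4 dormant means remained and the differences shrank or turned. Phgdh was then 1.06 (SE 0.84), Psat1 0.05 (SE 0.44), Psph −0.52 (SE 1.06), Shmt1 −0.63 (SE 1.47) and Shmt2 −0.33 (SE 0.95). Mthfd1 was −0.20 (SE 1.61), Mthfd2 −0.65 (SE 1.01) and Mthfd1l −1.51 (SE 1.35). Of the 8, 6 were lower in dormant cells, against 45.5% of all genes, and their median was −0.42 (0.09 for all genes). By limma all adjusted p were 1.00, 0 genes (0%) passed, and 0 members had an unadjusted p under 0.05, where 59 genes (0.509%) were lower and 168 higher. When the proliferating cell of mouse 268 with 2399 genes and the labelled dormant cell with 2984 genes were also left out, Phgdh was −0.05 (SE 0.36), Psat1 0.08 (SE 0.33) and Shmt2 −0.44 (SE 0.47). The errors were wider for Shmt1, at −1.37 (SE 1.55), and Mthfd1, at −0.52 (SE 1.54). A p that misses the threshold does not show that the states have equal levels.

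Cells with at least 5 of the 18 pan-leukocyte genes above 0 were found beyond the low-label set, in 11 of 22 labelled dormant and 12 of 29 proliferating cells. Within labelled dormant cells, Phgdh had a median of 2361 normalised reads in the 11 such cells and 2362 in the other 11, Shmt2 501 and 859, Mthfd2 415 and 529, and Psat1 1615 and 2454. Medians of Psph were 199 and 250, of Shmt1 1.53 and 104, of Mthfd1 127 and 330 and of Mthfd1l 79.0 and 113. The 11 such cells came from 4 mice and the other 11 from 3, so these medians also follow the shares of mice. When all such cells were left out, with 3 dormant and 6 proliferating means, 1 of 8 members was lower in dormant cells, against 26.9% of all genes. The members' median was then 0.91, against 0.78 over all genes. In that fit the proliferating means of mice 268 and 288 rest on 1 cell each, that of mouse 268 on the cell with 2399 genes, where Phgdh, Shmt1, Shmt2, Mthfd1 and Mthfd2 are at 0. With those means also left out, 5 of 8 members were lower, against 47.8% of all genes, and their median was −0.06 (0.05 for all genes). Shmt1 was then 2.58, Psat1 0.32, Shmt2 0.14, Phgdh −0.035, Psph −0.089, Mthfd2 −0.30, Mthfd1l −1.09 and Mthfd1 −1.93, so the count of 1 of 8 rests on means of 1 cell. The part of leukocyte transcripts in these differences was not tested.

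**Figure D3:**
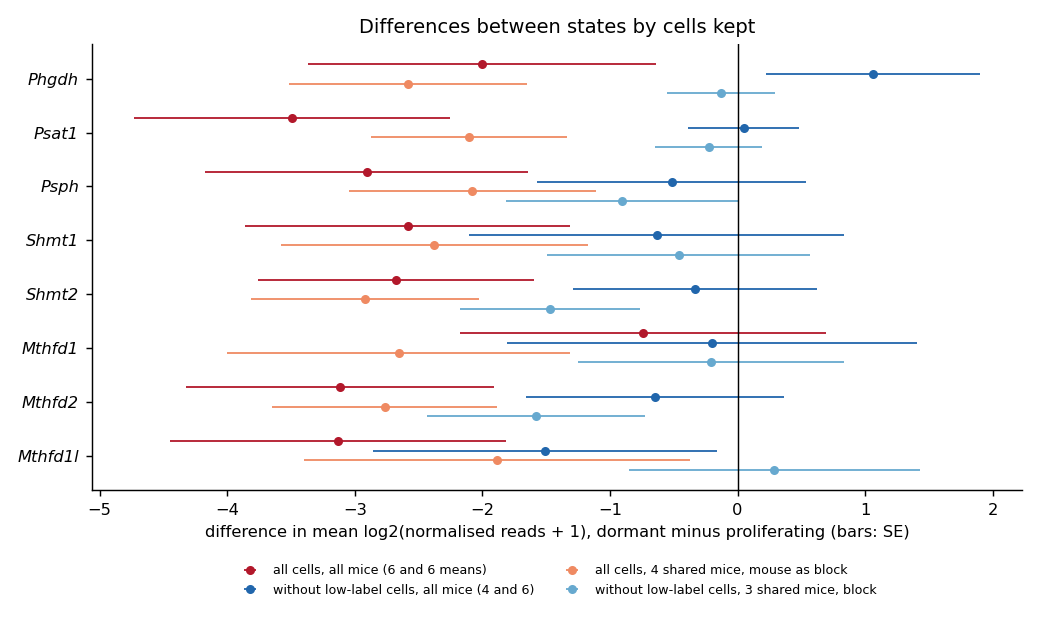
Differences in mean log2(normalised reads + 1), dormant minus proliferating, with bars of 1 SE, for all mice and for the shared mice, with and without low-label cells. Values with all cells lie between −3.50 and −0.74, and those without low-label cells between −1.58 and 1.06.

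The second comparison was made within the 4 mice that gave both states, with the mouse as a block. All 8 members again had lower values in dormant cells, from −2.92 (Shmt2, SE 0.89) to −1.88 (Mthfd1l, SE 1.51), and their median was −2.48 (−0.72 for all genes, of which 76.5% of 11565 were lower). By limma 0 members and 0 genes (0%) passed (members' adjusted p = 0.536 to 0.635), and at an unadjusted p under 0.05, 950 genes (8.21%) were lower and 119 higher, with 4 members among the lower ones. These 4 were Shmt2, Mthfd2, Phgdh and Psat1. When mouse 360 was left out, Mthfd1l was at 0.061. This comparison uses cells of the first and is no separate evidence.

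The mice contributed unequally. In mouse 360, whose dormant cells were both low-label, the member differences ran from −7.72 (Mthfd1l) to −3.22 (Psph). In mouse 369 they ran from −3.75 (Shmt2) to −0.78 (Mthfd1l), and without its low-label cells from −1.06 (Shmt2) to 1.35 (Psph). Mice 1185 and 452 gave no low-label cells. There Phgdh differed by −0.95 in mouse 1185 and 0.23 in mouse 452, Psat1 by −0.52 and −0.10, Psph by −2.19 and −1.86, Shmt1 by −0.81 and −0.29, Shmt2 by −0.41 and −2.94, and Mthfd2 by −1.93 and −3.17. Mthfd1 and Mthfd1l were higher in dormant cells of mouse 1185, by 1.53 and 2.85, and differed by −1.79 and −1.88 in mouse 452. The mouse 452 values rest on 3 dormant cells, one of them the cell with 2984 genes. Over the 3 mice with labelled cells of both states, 7 of 8 members were lower in dormant cells, against 56.1% of all genes, and their median was −0.34 (−0.12 for all genes). Shmt2 was at −1.47 (SE 0.71) and Mthfd2 at −1.58 (SE 0.85), and without the cells under 3000 genes at −0.44 (SE 0.52) and −0.62 (SE 0.66). Without those cells 5 of 8 members were lower, against 47.4% of all genes.

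The other genes of the pathway were read from lists. With all cells, 0 of their genes passed limma's test, and their counts stand against 63.1% of all genes lower. Of 13 other folate enzymes and carriers, 10 were lower in dormant cells (median −0.95). They include Tyms, thymidylate synthase, at −3.18 (SE 1.21), while Ggh, a folate hydrolase, was at 3.09 (SE 1.38). All 3 measured glycine cleavage genes were lower (median −1.53), as were 9 of 12 genes of serine transport and use (median −1.25) and 9 of 11 purine synthesis genes (median −0.62). Ppat, which opens purine synthesis, was at −3.50 (SE 1.38), while Adssl1, an adenylosuccinate synthetase gene, was at 3.30 (SE 1.44) and Gmps, GMP synthetase, at −2.76 (SE 1.31). In the methionine cycle 2 of 7 were lower (median 0.32), with Ahcy, which cleaves S-adenosylhomocysteine, at −3.71 (SE 1.18). In transsulfuration and glutathione synthesis 3 of 4 were lower (median −1.10). Of 14 genes for ATF4, a stress-response transcription factor known to drive serine synthesis genes, and its targets, 9 were lower (median −0.53), with Asns, asparagine synthetase, at −3.21 (SE 1.29).

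Without low-label cells, where 45.5% of all genes were lower, most of these lists had medians nearer to or past 0. The ATF4 list then had 3 of 14 lower (median 0.42) and Asns was at 0.06, other folate genes 6 of 13 (0.03), serine transport and use 5 of 12 (0.38) and purine synthesis 5 of 11 (0.11). Glycine cleavage kept a count of 3 of 3 lower (−0.91), the methionine cycle 2 of 7 (0.32) and transsulfuration 3 of 4 (−0.19). Tyms was at −2.06 and Ahcy at −0.73. Ppat was then at −1.53 (SE 1.53), Gmps at −0.57 (SE 1.07), Adssl1 at 1.51 (SE 1.27) and Ggh at 1.70 (SE 1.17). Adssl1 had medians of 277, 0 and 0 normalised reads in low-label, labelled dormant and proliferating cells, and Ggh of 93.3, 11.1 and 0. The 8 cycling genes, which include Tyms, had 8 of 8 lower with a median of −4.02 with all cells and −1.61 without low-label cells.

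Among labelled cells, the levels of Shmt1, Mthfd1, Mthfd1l and Psph varied by mouse. Shmt1 was above 0 in 17 of 17 labelled cells of mouse 369, with a median of 449 normalised reads, and in 17 of 34 labelled cells of the other mice, with a median of 0.767. Mthfd1 was above 0 in 17 of 17 cells of mouse 369 (235 to 1129) and in 3 of 3 of mouse 360 (754 to 1308), while its median was 190 in the 15 cells of mouse 1185 and 2.17 in the 9 of mouse 452. In mouse 369 both states shared this level: Shmt1 averaged 8.07 in labelled dormant cells and 8.35 in proliferating cells on the log2(value + 1) scale, and Mthfd1 8.65 and 9.03. Psph followed another order. Its 4 proliferating cells in mouse 1185 stood at 1010 to 1620, against 0 to 323 in the 13 of mouse 369 and 75.7 to 138 in the 3 of mouse 360. The 6 of mouse 452 ran from 0 to 1504 and overlapped all of these. Over labelled cells of both states, the Psph medians were 506 in mouse 452, 455 in mouse 1185, 122 in mouse 369 and 76.5 in mouse 360, with the single cell of mouse 288 at 462. The mitochondrial gene Mthfd1l had medians of 11.2 in mouse 452, 66.3 in mouse 1185, 95.2 in mouse 369 and 229.5 in mouse 360. In the 2 cells of mouse 268 its median was 738. Its cells ran from 0 to 402 in mouse 452 and from 0 to 260 in mouse 369. By contrast Psat1 medians over labelled cells ran from 1224 to 2534 over the 7 mice. Mouse, day and sort are shared by the cells of one mouse, and these differences have no test.

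**Figure D4:**
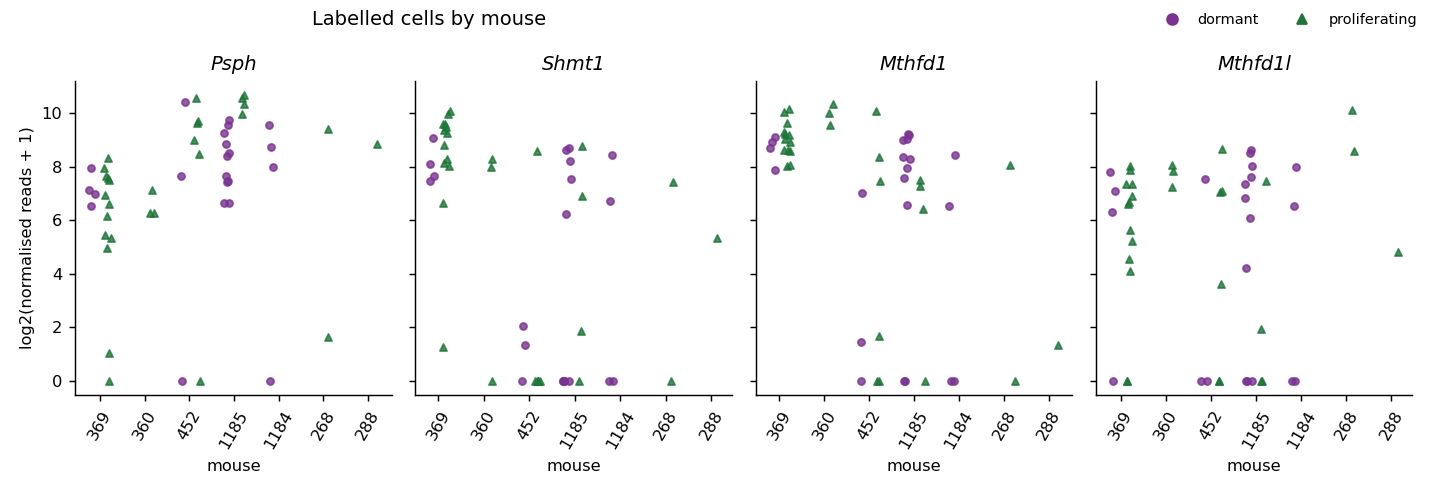
Labelled cells by mouse on a log2(normalised reads + 1) axis, dormant as circles and proliferating as triangles, for Psph, Shmt1, Mthfd1 and Mthfd1l. In mouse 369 all cells are above 0 for Shmt1 and Mthfd1, and in mouse 1185 the 4 proliferating cells lie above its dormant cells for Psph.

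Across single labelled cells, 5 members had positive correlations with one another. Without the 2 cells under 3000 genes, Phgdh, Psat1, Psph, Shmt2 and Mthfd2 had pairwise Pearson r of 0.15 to 0.73 over 21 labelled dormant cells and of 0.42 to 0.71 over 28 proliferating cells. The other 18 pairs ran from −0.30 to 0.81 in labelled dormant and from −0.19 to 0.48 in proliferating cells, so the ranges overlapped: 8 of these 18 in labelled dormant cells and 1 in proliferating cells (Psat1 and Shmt1, 0.48) lay above the lowest pair of the 5. The medians were 0.45 among the 5 and 0.07 in the other pairs in labelled dormant cells, and 0.61 and 0.09 in proliferating cells. The 5 were singled out after these values were seen. Phgdh and Psat1 were at 0.73 and 0.54, Phgdh and Shmt2 at 0.68 and 0.58, and Phgdh and Mthfd2 at 0.57 and 0.63, in labelled dormant and proliferating cells. The 2 cells under 3000 genes set much of the r when they are kept. With the mouse 268 cell of 2399 genes, Phgdh was at 0.92 with Shmt2 over 29 proliferating cells and 0.18 with Psat1. Over all 22 labelled dormant cells Phgdh was at 0.54 with Psat1, 0.27 with Mthfd2, 0.12 with Shmt2 and 0.08 with Psph. In the same cells Psph and Shmt2 were at 0.73, against 0.50 without the cell under 3000 genes. Without the 2 cells, Shmt1 and Phgdh were at −0.30 in labelled dormant and −0.03 in proliferating cells, and Shmt1 and Psat1 at 0.17 and 0.48. Shmt1's r with the mean of 8 cycling genes was then 0.76 in labelled dormant and 0.56 in proliferating cells. Mthfd1 and Mthfd1l were at 0.81 in labelled dormant and 0.27 in proliferating cells, and their r with the number of genes above 0 was 0.56 and 0.69 in labelled dormant cells. The points share mouse, library depth and normalisation.

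**Figure D5:**
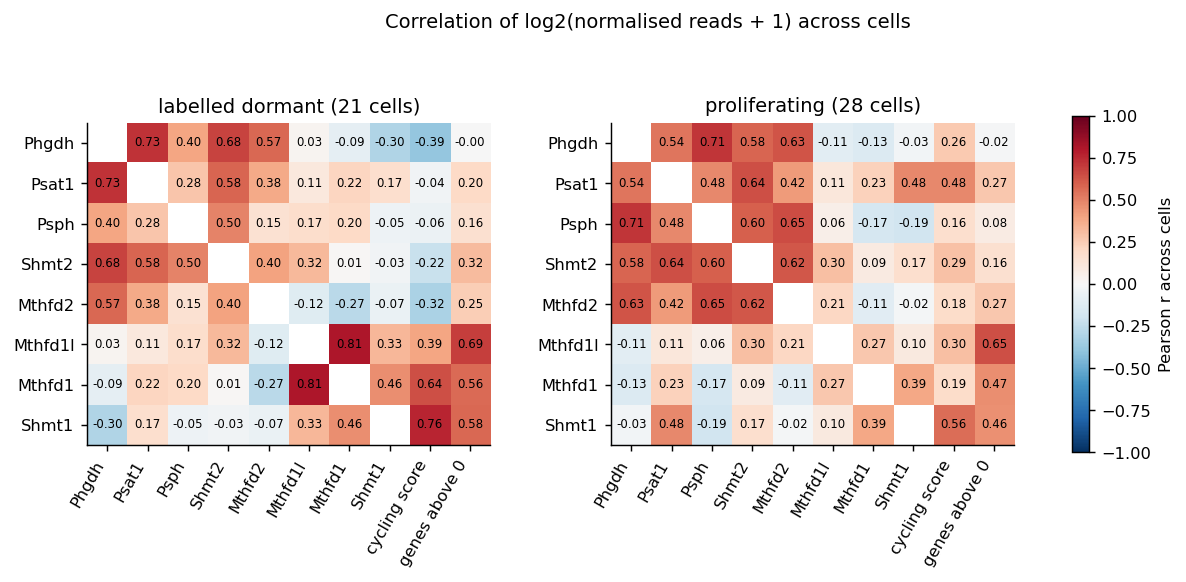
Pearson r of log2(normalised reads + 1) across labelled dormant cells (left) and proliferating cells (right) with at least 3000 genes above 0, between members and with the cycling score and the number of genes above 0. Phgdh, Psat1, Psph, Shmt2 and Mthfd2 have positive values with one another, from 0.15 to 0.73 on the left and from 0.42 to 0.71 on the right, and some other pairs, such as Mthfd1 and Mthfd1l on the left (0.81), are as high.

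The tumour label was compared in the same way. In labelled dormant cells with at least 3000 genes, r with eCFP was 0.71 for Shmt2, 0.59 for Psph, 0.55 for Phgdh, 0.39 for Psat1 and Mthfd1l, 0.16 for Mthfd2, 0.13 for Mthfd1 and 0.01 for Shmt1. In proliferating cells it was 0.43 for Shmt2, 0.42 for Psph, 0.38 for Psat1, 0.32 for Mthfd1, 0.29 for Phgdh, 0.24 for Mthfd1l, 0.08 for Mthfd2 and 0.01 for Shmt1. Shmt2 and Psph thus had the highest r with eCFP in both states among the 8 members when cells under 3000 genes were left out. Over all 22 labelled dormant cells they stayed highest, at 0.74 and 0.69. Over all 29 proliferating cells Psph was at 0.41, Psat1 at 0.38, Mthfd1 at 0.31 and Shmt2 at 0.23, so the rank of Shmt2 rests on leaving out a cell. Whether these r differ between states was not tested.

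For each member, the 3 most alike of 7872 genes over the 51 labelled cells were named by Pearson r. Phgdh was most like Rars (0.90), Tars (0.89) and Nars (0.88), which encode aminoacyl-tRNA synthetases, and Mthfd2 was most like Lars (0.85), another of them, then Pttg1ip and Copb1. Without the 2 cells under 3000 genes these r were 0.63, 0.71 and 0.71 for the first 3 and 0.73 for Lars. Over those 49 cells the pseudogene Gm7901 (0.87), Sars (0.76), another tRNA synthetase gene, and Asns (0.74) were most like Phgdh, so the first order rests on the 2 cells. Shmt1 was most like Mcm3 (0.81), of the replicative helicase, Trip13 (0.77) and Smc2 (0.73), a condensin gene, and 0.80, 0.76 and 0.73 without the 2 cells. Mthfd1 was most like Gcsh (0.79), the carrier protein of glycine cleavage, then Anapc10 and Hnrnpa1. Psph was most like Cuedc2 (0.79), Psat1 like Manbal (0.59), Shmt2 like Pdcl3 (0.88, and 0.47 without the 2 cells) and Mthfd1l like Gcc2 (0.67). Phgdh and its pseudogene Gm7901 were at 0.80 over all 51 cells, and Psph and Cct6a at 0.09, and −0.02 without the 2 cells. Over the 49 cells the first-ranked gene stayed the same for Shmt1, Mthfd1 and Mthfd2. It was Iah1 (0.75) for Psph, Usp8 (0.67) for Shmt2 and Gpat4 (0.74) for Mthfd1l. For Psat1 it was Gm7901 (0.62), with Phgdh next (0.61). The Gm7901 transcript is 98.7% identical to that of Phgdh over 1597 bases, and whether its reads come from Phgdh was not tested.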

How the data were processed

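The labels give the state and mouse of every sample, each of which is 1 cell. Cells were processed with SMARTer and Nextera XT kits and ERCC spike-ins per the labels' protocols, and per the submitters' processing notes the tools include RSEM and STAR, and the builds mm10 and GRCm38. The deposited values are a signal, BASiCS-normalised reads per gene and cell, per the series text, which states 28 dormant cells and 32 proliferating ones (29 of the 32 analysed here). Whole reads were recovered by dividing by each cell's step, with 100% of values above 0 whole within 0.01. The 118 spike-in rows were left out of the tests.

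The mouse was the replicate, and means of log2(value + 1) per mouse and state were compared by limma (3.58.1) with trend and robust moderation, for genes above 0 in at least 6 cells, with Benjamini-Hochberg adjustment at 0.05. The log2(value + 1) scale shrinks changes between values near 0, while a shift in the share of cells at 0 can make a difference of means large. Pairs in the shared mice come from the same animal per the labels, and the correlations of their deviations were −0.0064, 0.0032, 0.341 and 0.167 in mice 1185, 360, 369 and 452. edgeR (4.0.16) and DESeq2 (1.42.0) on recovered reads were alternatives. The fits were also run on simulated data, with cells redrawn and known folds applied to some genes. These folds leave values of 0 at 0, and the outcome is not reported here. The members, lists and rules were chosen with earlier results of these data known. Named are all members, up to 3 genes per pathway list by unadjusted p and the genes most alike each member, not all of which are reported here. The CCAAT and GC box motifs, the threshold of 3000 genes and the order by mouse medians were added after values were seen. Other software was BLAST 2.17.0, R 4.3.3, Python 3.11.15, matplotlib 3.10.9, pandas 2.3.3 and scipy 1.17.1, and a GENCODE annotation of GRCm38 gave positions.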

Additional observations from a re-analysis of the deposited data

Results flagged for a closer look

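The mean of mouse 268 lay apart from the other 5 proliferating means in 2 members. For Phgdh it was 5.746 on the log2(value + 1) scale, against 9.94 to 11.89 in the other mice. For Shmt2 it was 5.295, against 9.08 to 9.92. The gap made up 0.682 and 0.818 of the whole range of the 6 means, above the 95% critical value of 0.625. These 2 were among 16 sets of 6 means examined, and chance sets about 1 in 20 apart. The mean holds 2 cells. In one, with 2399 genes above 0, Phgdh, Shmt1, Shmt2, Mthfd1 and Mthfd2 were at 0, Psph was at 2.10, Psat1 at 2151 and Mthfd1l at 1096. That cell had eCFP at 1161 and Krt8 at 5503. In the other, Phgdh was at 2881 and Shmt2 at 1541. The part of the low number of genes in these values was not tested.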

How the results depend on the processing

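Over all mice, limma called 0 genes with each alternative pseudocount, filter, averaging, weighting, rescaling, set of cells or left-out mouse, edgeR called 0 and DESeq2 393. With the mouse as a random replicate block over all mice, 0 genes were called and member differences ran from −3.40 (Psat1) to −0.87 (Mthfd1). Within the shared mice limma called 0, also with no replicate block, except that without leukocyte-rich cells, with 2 means of each state left, it called 1, mt-Co3 at −4.92, named after its value was seen. With median-of-ratios rescaling the median of all genes was −0.15, against −0.35. Member differences kept their direction in 201 alternative values over all mice and 137 in shared mice, and turned in 15 and 7. The kept values include settings that could not change a difference. These are the filters on low values in both comparisons, and in shared mice also leaving out the block or means of 1 cell. Without low-label cells, Phgdh was 1.06 (0.71 with a replicate block) and Psat1 0.049 over all mice, and Mthfd1l 0.29 in shared mice. Without leukocyte-rich cells, Phgdh was 2.00, Psat1 0.40, Psph 0.86, Shmt1 2.94, Shmt2 1.60, Mthfd1 0.59 and Mthfd2 0.95 over all mice, and Shmt1 1.29 and Mthfd1l 0.0495 in shared mice. Without low-label or leukocyte-rich cells and means of 1 cell, Psat1 was 0.32, Shmt1 2.58 and Shmt2 0.14, and the other 5 were lower, from −1.93 (Mthfd1) to −0.035 (Phgdh). Without low-label cells and cells under 3000 genes, Psat1 was 0.084 over all mice, and Psph 0.10, Mthfd1 0.26 and Mthfd1l 0.71 in shared mice. The cause was not tested. Leaving out 1 mouse at a time gave Mthfd1 from −1.62 to 0.53 (without mouse 360) and Phgdh from −2.85 to −0.99 over all mice, and Mthfd1l from −3.46 to 0.061 (without mouse 360) in shared mice, and counts of 0 called. The settings with 3000 genes, those with 1-cell means left out together with others, and the block without low-label cells were chosen after seeing the data. Depth per cell limits genes near 0, and mean differences have SE of 1.08 to 1.44 over all mice.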
